A study of Mus musculus with 18 samples.

Results

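Mouse embryonic stem (ES) cells grown on p53-defective feeder cells were compared with the same feeders grown alone, across all genes. The libraries were chosen by their labels, and 6 of the 18 libraries of the series entered the comparison: 3 of the co-culture and 3 of the feeders alone. The feeders are embryonic fibroblasts by the labels. "p53-defective" is all that the labels say of their genotype, so the alteration, the strain, the passage and the ES cell line are not known here, nor whether replicates were separate cultures. The labels describe no sorting, so a co-culture library is taken to hold RNA of both cell types, in which fewer cells of a type cannot be told apart from less RNA per cell. As reference points the text uses 3 libraries labelled as ES cells from control feeders with the feeders taken away, called here after feeder removal, and 3 of ES cells that had ATN161, a peptide against integrin α5β1, instead of feeder cells. The co-culture on control feeders and the control feeders alone, 3 libraries each, give the same contrast on the other kind of feeder.

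Feeder cells are used because they secrete factors and lay down a matrix that hold ES cells in the pluripotent state, in which the transcription factors OCT4, SOX2 and NANOG keep the early embryonic programme on. Fibronectin is a main fibroblast matrix protein, and integrin α5β1 is its receptor. p53 is a transcription factor that answers to DNA damage and other stress, among others by raising the cell cycle inhibitor p21 and its own antagonist MDM2.

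Trp53, the gene of p53 itself, was read at 158, 160 and 140 CPM in the co-culture, against 326, 317 and 244 CPM in p53-defective feeders alone. CPM are counts per M (mega) counts after TMM scaling, a factor that makes libraries of unlike composition comparable. The feeder libraries thus held Trp53 mRNA, more than the mean of 119 ± 6.7 CPM of control feeders (SD, n = 3), and the level of the mRNA does not check a defect of the protein. All 3 co-culture libraries lay below the feeders. Trp53 was 1.93-fold lower in the co-culture (log2 fold change −0.95 ± 0.09 SE, adjusted p = 2.04e-09, edgeR quasi-likelihood test with Benjamini-Hochberg adjustment).

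The co-culture libraries held 19.06 to 19.15 M counts and the feeder libraries 15.12 to 16.71 M. Of 15389 genes tested, 79.7% differed between the groups: 46.7% were higher and 33% lower in the co-culture at an adjusted p below 0.05, which is the meaning of rose, fell and called from here on. The median of all genes was 0.27 on the log2 scale, and 0.02 when the 6 libraries were fitted without the other groups. In 76.4% of genes the 3 co-culture values lay all above or all below the 3 feeder values (44.7% above, 31.7% below), so a call by itself sets no gene apart here. Feeder replicate 3 stood apart from the other feeders: its counts differed from theirs by 22.98 to 27.28 times the counting variance, against 3.146 times between replicates 1 and 2. The 3 co-culture libraries differed from each other by 10.84 to 42.15 times that variance.

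The change also moved with the build of the transcripts. Genes with a longest transcript of at most 1 kb had a median log2 fold change of 1.34, and genes over 8 kb one of −0.65. By GC content the medians were −0.87 at 40% or less and 0.89 over 60%. The same contrast on control feeders gave 0.52 and −0.12 for the shortest and longest class. The part of length and GC content in any single result was not tested, but a fit with offsets for both was run, and its values are given beside some of the results.

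**Figure D1:**
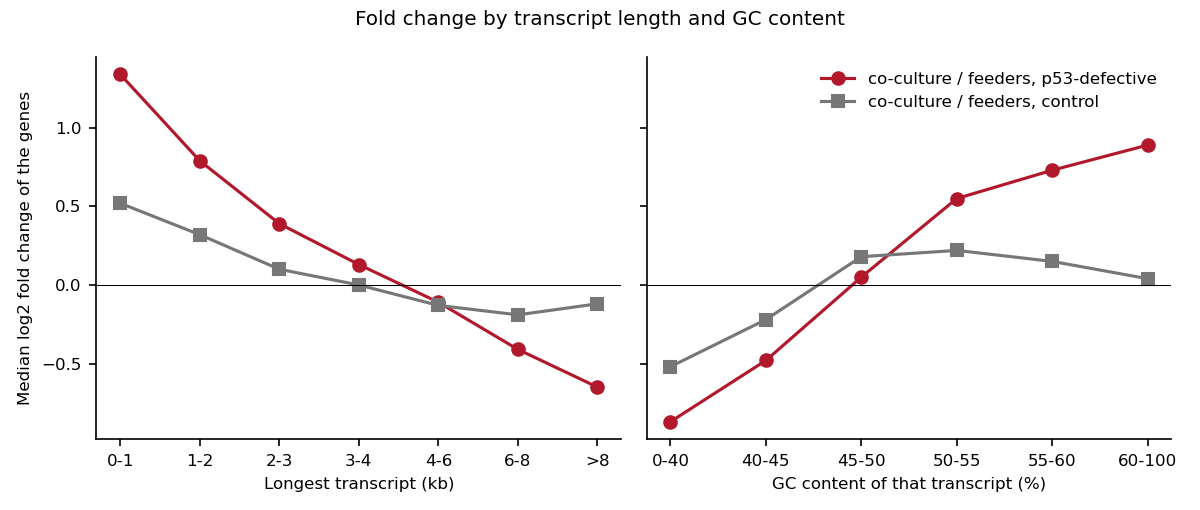
Median log2 fold change of the genes in classes of longest transcript length (left, kb) and of its GC content (right, %), for the co-culture over feeders on p53-defective cells (circles) and on control cells (squares). On p53-defective cells the medians run from 1.34 to −0.65 with length and from −0.87 to 0.89 with GC content, a wider span than on control cells.

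The clearest gain was of ES cell genes. Pou5f1, which encodes OCT4, stood at 43.5, 66.4 and 42.8 CPM in the co-culture and had no count in any feeder library, so that it was at least 838-fold higher against a floor of 3 counts over the feeders. Sox2 stood at 13.2, 19.5 and 13.4 CPM in the co-culture and also had no count in the feeders, a difference of at least 253-fold. Nanog stood at 38.4, 49.8 and 37.5 CPM in the co-culture, against 0.635, 0.577 and 1.41 CPM in the feeders. Replicate 2 of the co-culture was the highest of the 3 for all of these genes. Nanog was 47.7-fold higher (log2 fold change 5.58 ± 0.18 SE, adjusted p = 4.73e-17, edgeR quasi-likelihood test).

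Of 16 core pluripotency genes tested, 15 rose and 1 fell, beside 46.7% and 33% of all genes. Every list count below stands beside the same shares, and a count near them sets no list apart. Their median log2 fold change was 9.78, or 6.66 with the 10 genes that had no count in the feeders put at their lower bound, against 0.27 for all genes. Dppa5a, a developmental pluripotency marker, was the largest rise of the comparison, at 138, 207 and 132 CPM in the co-culture and 0 in the feeders, which is at least 2618-fold. Tdgf1, a co-receptor of NODAL, and L1td1, an RNA-binding protein of ES cells, were at least 551-fold and 227-fold higher. Fgf4, the growth factor by which ES cells signal to themselves, was at least 98.3-fold higher. Among 13 formative and primed genes, which mark the step out of naive pluripotency, 11 rose and none fell. Nodal, a TGF-β family ligand, was at 4.91, 7.8 and 7.13 CPM in the co-culture, against 0.127, 0 and 0 CPM in the feeders, and the de novo DNA methylase Dnmt3b gained 1.86 ± 0.13.

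The promoter of Nanog is printed because OCT4 and SOX2 are known to act on this gene through a joint octamer and SOX element. The sequence is RefSeq's on GRCm38.p6, from 250 bases before to 50 after the start. Capitals mark the octamer letters TTTGCAT, then any base, then ACAA. On either strand they occur in 12 of 32851 mouse promoter windows, or 0.0365%, and in 2 of the 14 windows of core pluripotency genes, both of them windows of Nanog. A match is a description of the sequence, not proof of a bound site.
Nanog (chr6:122707239-122707538, plus strand): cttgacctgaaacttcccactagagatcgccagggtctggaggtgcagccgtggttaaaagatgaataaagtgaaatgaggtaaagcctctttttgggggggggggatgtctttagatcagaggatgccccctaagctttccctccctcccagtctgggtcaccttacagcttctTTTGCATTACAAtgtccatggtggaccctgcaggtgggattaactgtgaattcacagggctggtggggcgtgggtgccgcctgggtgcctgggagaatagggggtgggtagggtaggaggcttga

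**Figure D2:**
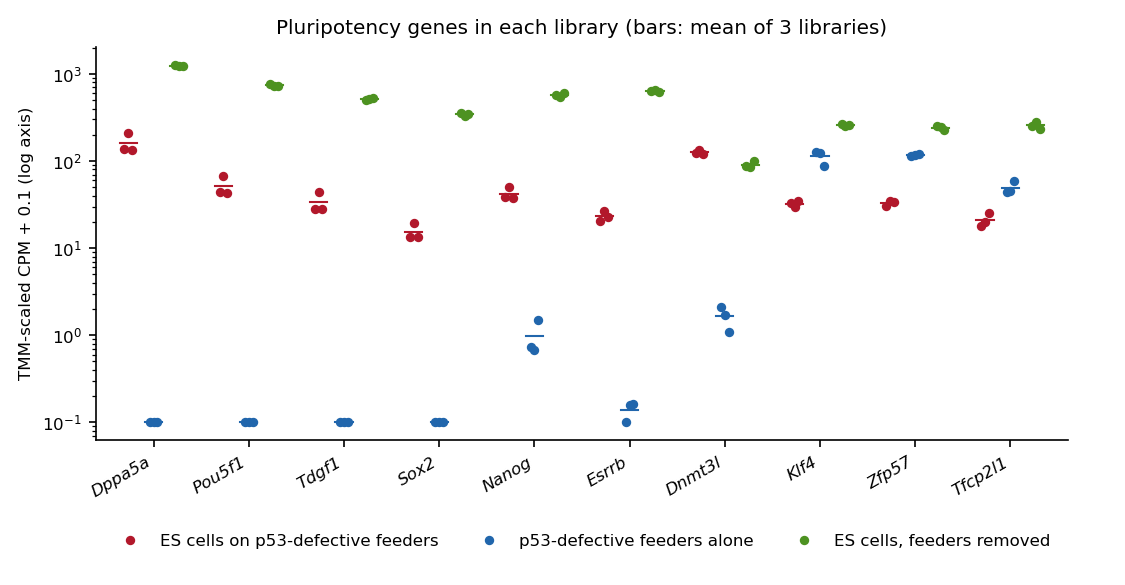
Level in each library (log axis, TMM-scaled CPM plus 0.1) of 10 pluripotency genes in ES cells on p53-defective feeders, in those feeders alone and in ES cells after feeder removal. Bars are means of 3 libraries. Dppa5a, Pou5f1, Tdgf1 and Sox2 are at 0 in every feeder library, while Klf4, Zfp57 and Tfcp2l1 are lower in the co-culture than in either of the other groups.

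The level of the ES cell genes in the co-culture was low against pure ES cells. A set of 637 genes, here called ES-high, exceeded their level in control feeders by 8-fold or more both after feeder removal and with ATN161. The median gene of the set reached 11.3 ± 0.75% of its level after feeder removal in the co-culture, against 2.24 ± 0.4% in the feeders alone (SD, n = 3). Restricted to the ES-high genes below 1 CPM in the p53-defective feeders, the medians were 6.9 ± 0.68% and 0.0195 ± 0.034%. On control feeders the median of all ES-high genes was 80.2 ± 0.7% in co-culture. Of these 637 genes, 461 rose and 120 fell.

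Whether an ES cell gene rose went with how far the p53-defective feeders expressed it already. All 117 of these genes without a count in the feeders rose, as did 202 of 209 that were present below 1 CPM. Of the 168 at 10 CPM or more in the feeders, 40 rose and 103 fell, with a median of −0.43. Since the feeder level is one side of the contrast, these counts are a description only.

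Naive pluripotency genes went both ways. Of 18 naive genes 13 rose, led by Tex19.1, a germline and placental gene, at least 213-fold. Esrrb, a nuclear receptor of the naive state, was at 20.6, 26.3 and 22.9 CPM in the co-culture, against 0, 0.0577 and 0.0613 CPM in the feeders. The 4 that fell were all expressed by the p53-defective feeders. Klf4, a reprogramming factor that fibroblasts also use, was at 33.1, 29.3 and 34.3 CPM in the co-culture, against 126, 125 and 87.7 CPM in the feeders. Zfp57, a zinc finger protein that guards imprinted methylation, was at 30.1, 35 and 33.5 CPM in the co-culture, against 114, 117 and 119 CPM in the feeders. Tfcp2l1, a naive transcription factor, was at 17.7, 19.6 and 25.1 CPM in the co-culture and 43.8, 45.5 and 58.4 CPM in the feeders. For these 3 genes the groups did not overlap. Klf5 overlapped between the groups and was 0.24 ± 0.10 lower on the log2 scale, a call that was lost in 10 of the 15 alternatives. Lin28b, an inhibitor of let-7 processing, was the 1 core gene that fell, at 1.7, 1.81 and 2.38 CPM in the co-culture and 7.17, 6.7 and 6.99 CPM in the feeders.

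Dnmt3l, a cofactor of de novo DNA methylation, was one naive gene that was not low against pure ES cells. It stood at 124, 134 and 120 CPM in the co-culture, against 2.03, 1.62 and 0.981 CPM in the feeders, with a mean of 90.8 CPM after feeder removal and 189 CPM with ATN161. Of 9 DNA methylation genes, 3 rose and 5 fell. The falls held the demethylases Tet2 and Tet3, at −1.98 ± 0.16 and −1.4 ± 0.09 on the log2 scale, and the glycosylase Tdg at −1.10 ± 0.09. Tet1, of the same demethylase family, was instead 0.99 ± 0.21 higher. Dnmt1, a DNA methylase, and Uhrf1, both named after their values were seen, also fell, at −0.64 and −0.96. The genes of the transient 2-cell-like state, which a small fraction of ES cells enters, rose in 10 of 15 and fell in 1. Zscan4f, of the ZSCAN4 telomere factors, was at 18.8, 23.3 and 19 CPM in the co-culture, against 2.54, 3 and 2.57 CPM in the feeders. Reads of the near-identical Zscan4 and Usp17l copies, of the Oas genes and of genes with pseudogenes, such as Pou5f1, Nanog, Dppa5a and Krt18, may have been given to the wrong copy.

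A mixture of feeders and ES cells, scaled alike, would place each gene between the levels of its parts. The genes outside both parts were therefore counted as those called and at least 2-fold apart, in the same direction, from the p53-defective feeders, from ES cells after feeder removal and from ES cells with ATN161. There were 1190 above both parts, or 7.73% of genes tested, and 997 below, or 6.48%. These counts have limits. The ES cells without feeders had been on control feeders or in ATN161 and not on p53-defective ones. Scaled on the feeder-high genes instead of by TMM, the counts were 155 above and 2216 below, and with length and GC offsets 590 were below. The genes above had a median longest transcript of 2135 bases with 55% GC and the genes below 4467 bases with 44.4%, against 3107 bases and 50.3% for all genes.

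The 10 genes furthest above both parts were of mixed function. Nos2, the inducible nitric oxide synthase, was at 78.1, 89.2 and 88.7 CPM in the co-culture, against 2.09, 2.19 and 0.674 CPM in the feeders, with means of 2.21 CPM after feeder removal and 2.04 CPM with ATN161. Il33, an alarmin cytokine, was at 196, 221 and 213 CPM in the co-culture and 6.98, 10.1 and 11.6 CPM in the feeders. Igfbp3, which binds insulin-like growth factors and is a known p53 target, was at 747, 825 and 801 CPM in the co-culture and 45, 53.7 and 34.1 CPM in the feeders. Each of these 3 genes had all co-culture libraries far above every feeder library. Angpt4, an angiopoietin, was at 41.2, 41.9 and 40.3 CPM in the co-culture, against 0.635, 0.577 and 1.59 CPM in the feeders. Wnt4, a WNT ligand, was 13.2-fold higher at 35.2, 43.5 and 37.4 CPM in the co-culture and 2.35, 2.6 and 3.8 CPM in the feeders. Cnn1, a smooth muscle calponin, Vwa1, a matrix protein, Selenbp1, a methanethiol oxidase, Cda, a cytidine deaminase, and Prl2c2, a placental prolactin-family hormone, were also among the 10 furthest above. Of these, Prl2c2 stood at 239, 179 and 193 CPM in the co-culture against 1.65, 2.25 and 2.15 CPM in the feeders.

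The 10 genes furthest below both parts were as mixed, and held Lama1 and Cmah, a sialic acid hydroxylase, beside those given here. Socs2, a feedback inhibitor of cytokine signalling, was at 2.79, 3.24 and 2.97 CPM in the co-culture, against 44.5, 43.5 and 37.6 CPM in the feeders, with means of 83.9 CPM after feeder removal and 42.1 CPM with ATN161. Tenm4, a teneurin membrane protein, was at 1.09, 1.75 and 2.08 CPM in the co-culture and 36.3, 37.5 and 32.4 CPM in the feeders. Rif1, a replication timing and telomere factor, was at 19.9, 17 and 21.1 CPM in the co-culture, against 159, 156 and 133 CPM in the feeders. In all 3 genes the highest co-culture library was below the lowest feeder library. Suv39h2, a histone H3K9 methylase, changed by −2.77 ± 0.12, and Slc7a3, a cationic amino acid carrier, by −2.91 ± 0.17 on the log2 scale. Cenpe, a kinetochore motor, Cep135, a centriole protein, and Dis3, an exosome ribonuclease, changed by −2.69 ± 0.12, −2.72 ± 0.16 and −2.98 ± 0.16. Rif1 and Cenpe have longest transcripts of 8509 and 7910 bases, and with length and GC offsets each fell by 1.48.

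**Figure D3:**
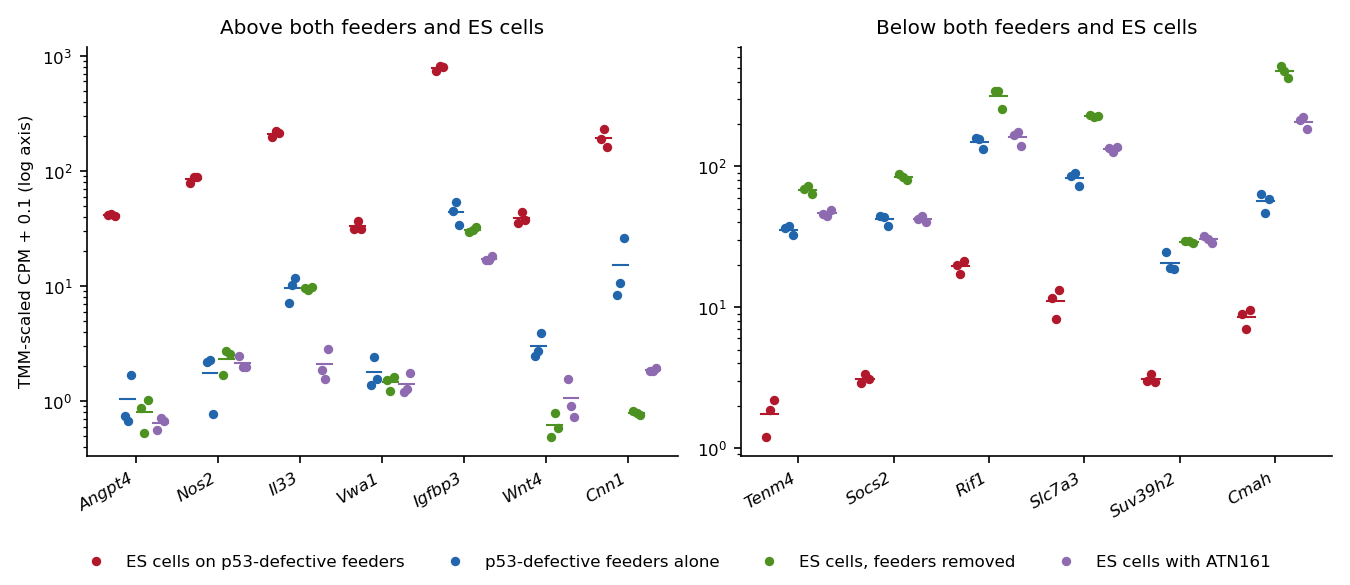
Level in each library (log axis, TMM-scaled CPM plus 0.1) of 7 genes above (left) and 6 genes below (right) both parts, in ES cells on p53-defective feeders, in those feeders alone, in ES cells after feeder removal and in ES cells with ATN161. Bars are means of 3 libraries. Nos2 lies at 78.1 to 89.2 CPM in the co-culture and below 3 CPM elsewhere, and Socs2 lies at 2.79 to 3.24 CPM in the co-culture and above 30 CPM elsewhere.

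Of the 26 gene lists, glycolysis and hypoxia had the largest share of members above both parts. Of 27 tested, 26 rose, 1 fell and 22 were above both parts, beside 7.73% of all genes above both. With scaling on feeder-high genes 155 genes in all were above both parts instead of 1190, and the list was not recounted under it. The list median was a log2 fold change of 2.13, and 1.72 with length and GC offsets. Pfkl, the liver form of phosphofructokinase, was at 985, 1050 and 923 CPM in the co-culture, against 95, 109 and 116 CPM in the feeders. Ldha, which turns pyruvate into lactate, was at 3072, 3499 and 2707 CPM in the co-culture and 530, 573 and 473 CPM in the feeders. For both enzymes each co-culture value was over 4 times each feeder value. Slc2a1, the glucose transporter GLUT1, was at 794, 687 and 922 CPM in the co-culture and 192, 216 and 178 CPM in the feeders. Hk1 and Gpi1, the enzymes of the first steps of glycolysis, were 5.31-fold and 5.85-fold higher. Egln1, an oxygen-sensing prolyl hydroxylase, and Bnip3, a mitophagy receptor induced in hypoxia, were 5.22-fold and 7.87-fold higher.

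The transcription factor gene moved with the list in one fit and not in the other, and the best known secreted target fell. Hif1a, the oxygen-regulated subunit of HIF-1, had 263, 240 and 272 CPM in the co-culture and 263, 255 and 257 CPM in the feeders, which overlap (log2 fold change 0.00 ± 0.06). With length and GC offsets it rose by 1.03 (adjusted p = 2.78e-14, edgeR quasi-likelihood test). HIF-1α is regulated mostly at the protein level, which was not measured. Vegfa, the vascular growth factor, was the 1 gene that fell, with 290, 296 and 334 CPM in the co-culture and 804, 782 and 748 CPM in the feeders. Hif1a, with Slc2a1, Ldha and Angptl4, was picked after its values were seen. Angptl4, a lipase inhibitor induced in fasting and hypoxia, was at 243, 238 and 235 CPM in the co-culture and 1.02, 0.693 and 1.72 CPM in the feeders. The time since the medium was changed and the cell density of the dishes are not known here.

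Promoters of Pfkl and Hk1, the glycolysis genes with a hypoxia response core that have the smallest p beside Egln1, are shown because HIF-1 is known to bind the core letters ACGTG or GCGTG. These cores stood in capitals on either strand and may overlap. They occur in 29 of the 36 windows of list genes, or 80.6%, and in 43.8% of all 32851 windows, so the core is common. The windows are RefSeq's on GRCm38.p6, 250 bases before to 50 after the start.
Pfkl (chr10:78009758-78010057, minus strand): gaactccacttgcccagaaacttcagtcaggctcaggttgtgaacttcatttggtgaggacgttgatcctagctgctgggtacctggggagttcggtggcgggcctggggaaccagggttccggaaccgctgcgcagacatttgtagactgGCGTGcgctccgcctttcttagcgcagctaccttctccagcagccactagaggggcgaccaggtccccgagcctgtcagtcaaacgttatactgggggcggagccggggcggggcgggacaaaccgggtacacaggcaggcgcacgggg
Hk1 (chr10:62340372-62340671, minus strand): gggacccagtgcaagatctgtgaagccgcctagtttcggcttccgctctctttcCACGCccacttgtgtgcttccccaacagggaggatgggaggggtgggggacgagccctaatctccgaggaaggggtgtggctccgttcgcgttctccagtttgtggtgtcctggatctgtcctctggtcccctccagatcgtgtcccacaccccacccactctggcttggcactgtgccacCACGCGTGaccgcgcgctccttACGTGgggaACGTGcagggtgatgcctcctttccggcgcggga

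Oxidative phosphorylation genes also rose, 20 of 22 with none falling, at a median of 0.99. Their transcripts are short, with a median of 1252 bases, and with length and GC offsets 14 rose and 2 fell at a median of 0.26. Ndufb5, a complex I subunit, was at 75.1, 91.6 and 64.1 CPM in the co-culture and 25.1, 25 and 26.4 CPM in the feeders. Uqcrc1, of complex III, was 2.24-fold higher, and Cox4i1, of complex IV, 2.29-fold higher but 0.11 lower on the log2 scale with the offsets. Cholesterol synthesis genes divided, with 12 of 23 higher and 4 lower, beside 46.7% and 33% of all genes. Mvd and Fdft1, at the mevalonate and squalene steps, gained 1.44 ± 0.10 and 1.34 ± 0.08 on the log2 scale, and Sc5d, a late step, lost 0.67 ± 0.08 but was 0.27 higher with length and GC offsets. Only 2 fell when any of 4 libraries, co-culture replicates 2 and 3 or feeder replicates 1 and 2, was left out.

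Smooth muscle contractile genes rose within a list in which most of the other members fell. In the actin, SRF and YAP list 9 of 20 rose and 8 fell, so that the median was −0.07, and above 0 in 6 of the 15 alternatives. All 8 list members above both parts, beside 7.73% of all genes, are contractile: Myl9, Cnn1, Cnn2, Actg2, Acta2, Tagln, Tpm1 and Tpm2. Of the other 12 members 8 fell, 3 were not called, and Myh9, a non-muscle myosin, was 0.74 ± 0.10 higher. Acta2, smooth muscle actin and a myofibroblast marker, was at 4726, 5761 and 4193 CPM in the co-culture, against 534, 581 and 1148 CPM in the feeders. Tagln, an actin-bundling protein, was at 1503, 2044 and 1313 CPM in the co-culture and 207, 245 and 398 CPM in the feeders. Myl9, a myosin light chain, was 36-fold higher, at 89.9, 109 and 77.3 CPM in the co-culture and 1.59, 1.44 and 4.66 CPM in the feeders. In these 3 genes feeder replicate 3 was the highest feeder and co-culture replicate 2 the highest co-culture. Ccn2 and Ccn1, matricellular targets of the YAP pathway, moved the other way, by −1.33 ± 0.21 and −0.83 ± 0.12 on the log2 scale. Des, an intermediate filament of muscle, was at 77.3, 82.1 and 67.8 CPM in the co-culture, against 5.9, 7.51 and 8.95 CPM in the feeders. Of 8 skeletal muscle markers 5 rose and 1 fell.

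Most matrix genes rose in the presence of ES cells, while fibronectin did not. Of 27 interstitial matrix genes 23 rose at a list median of 1.0, and Fn1 was the 1 that fell. Fn1, the fibronectin gene, was at 10363, 8023 and 14710 CPM in the co-culture, against 12734, 13950 and 15967 CPM in the feeders. The groups overlap, and the highest co-culture library exceeded 2 of the feeder libraries. The difference was −0.37 ± 0.14 on the log2 scale (adjusted p = 0.0193, edgeR quasi-likelihood test) and lost its call in 9 of the 15 alternatives, at adjusted p of 0.052 to 0.172. Col1a1, the main chain of collagen I, was at 7905, 6255 and 10521 CPM in the co-culture, against 2203, 2426 and 3169 CPM in the feeders. Col3a1 was 5.37-fold higher, Col12a1 18.8-fold and Col6a3, a chain of the beaded collagen VI, 51.9-fold. Co-culture replicate 3 was the highest and replicate 2 the lowest of the co-culture for Fn1, Col1a1, Col12a1 and Col6a3, the reverse of the order for Pou5f1.

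Beside 46.7% and 33% of all genes, basement membrane genes rose in 10 of 18 and fell in 2, or in 5 without co-culture replicate 3. Nid2, the nidogen that links laminin to collagen IV, was 4.80-fold higher. Lama1, the laminin chain of the early embryo, was below both parts at 4.24, 3.06 and 7.48 CPM in the co-culture and 32.4, 31.5 and 28.3 CPM in the feeders. Of 25 matrix proteases and inhibitors 16 rose and 4 fell. Timp1, a metalloproteinase inhibitor, was at 296, 362 and 274 CPM in the co-culture, against 48.5, 51.8 and 50.5 CPM in the feeders. The plasminogen activator Plat was 6.41-fold higher and its inhibitor Serpine2 8.72-fold. The collagenase Mmp13 fell to 32.7, 34.7 and 41 CPM in the co-culture, against 139, 141 and 206 CPM in the feeders.

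Integrin genes went in both directions. Of 17, 11 rose and 3 fell, and with length and GC offsets 14 rose and 1 fell. Itga5, the α5 chain of the fibronectin receptor, was at 377, 338 and 433 CPM in the co-culture, against 231, 257 and 289 CPM in the feeders, 0.56 higher on the log2 scale. Itgb1, its β1 partner, was at 1233, 1030 and 1370 CPM in the co-culture and 1312, 1272 and 1342 CPM in the feeders, and was not called (−0.11 ± 0.08, adjusted p = 0.204). Itgav, the αv chain, was at 175, 126 and 224 CPM in the co-culture and 243, 207 and 235 CPM in the feeders. The values of Itgb1 and Itgav overlap between the groups. Their direction turned with length and GC offsets, to 0.52 for Itgb1 and 0.69 for Itgav, against −0.38 ± 0.12 for Itgav without them. Itgav was also not called without feeder replicate 1, at −0.22. Itgb3, the β3 partner of αv, was at 23.2, 20 and 26.7 CPM in the co-culture, against 3.62, 3.98 and 7.11 CPM in the feeders, a rise of 2.25 ± 0.16. Itga4 and Itga8, chains of other receptors of fibronectin, were at 0.849, 0.437 and 0.475 CPM for Itga4 and 1.39, 1.62 and 1.43 CPM for Itga8 in the co-culture, and at most 0.184 CPM in the feeders, a rise in both. Besides Itgav, Itga3 and Itgb8 fell, by 0.69 ± 0.13 and 1.54 ± 0.26, and Itgb8 was not called with the offsets, at −0.16. Itga11, a collagen receptor chain, and Itga7, a laminin receptor chain, were 9.62-fold and 5.67-fold higher.

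**Figure D4:**
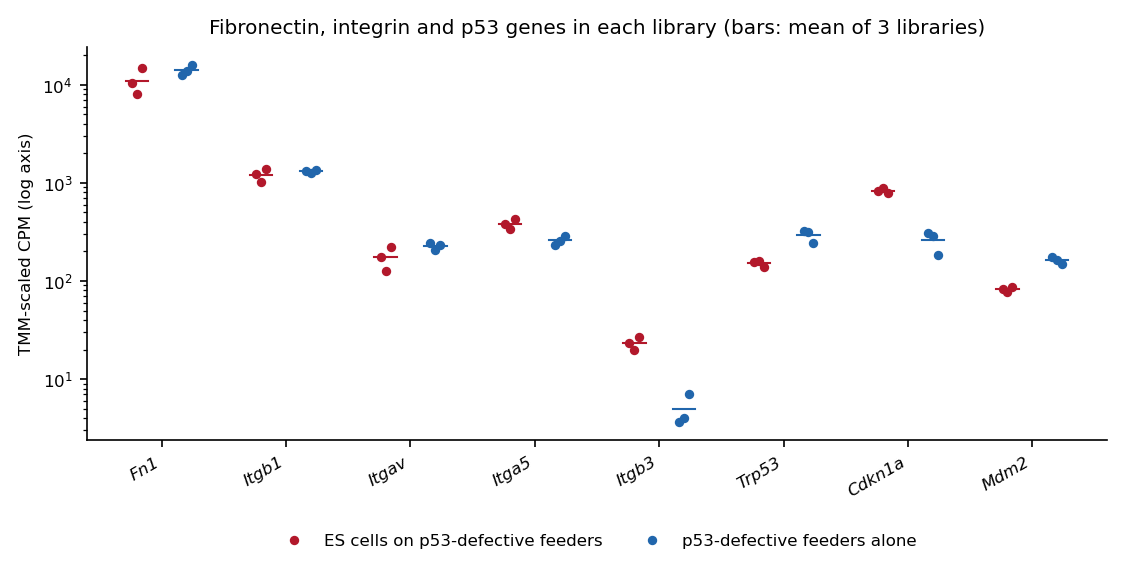
Level in each library (log axis, TMM-scaled CPM) of fibronectin, 4 integrin and 3 p53 genes in ES cells on p53-defective feeders and in those feeders alone, with bars for means of 3 libraries. Fn1, Itgb1 and Itgav overlap between the groups, Itgb3 and Cdkn1a lie higher and Trp53 and Mdm2 lower in the co-culture.

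The markers of the feeders themselves were uneven. Of 18 fibroblast markers 17 rose, summing to 24702 to 38457 CPM in the co-culture and 18204 to 23706 CPM in the feeders. Postn, periostin, a marker of activated fibroblasts, stood at 33.4, 28.6 and 32.8 CPM in the co-culture and 2.41, 2.48 and 4.29 CPM in the feeders, far below the mean of 5913 CPM of control feeders. Msln, mesothelin, which marks mesothelium and not fibroblasts, was instead abundant, at 658, 608 and 733 CPM in the co-culture and 690, 755 and 879 CPM in the feeders. It was not called, but with length and GC offsets it was 0.67 lower on the log2 scale (adjusted p = 3.59e-05, edgeR quasi-likelihood test). Wt1, a mesothelial transcription factor, was at 96.4, 91.7 and 102 CPM in the co-culture and 109, 104 and 122 CPM in the feeders. Of 15 mesothelial markers 9 rose and 5 fell, beside 46.7% and 33% of all genes. They summed to 2589 to 2664 CPM in the co-culture and 1693 to 2613 CPM in the feeders. The labelled p53-defective fibroblasts thus carried mesothelial markers together with collagen genes.

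The genes at least 8-fold higher in p53-defective feeders than in ES cells stood in the co-culture at a median of 66.5 ± 5.2% of their level in those feeders (SD, n = 3). Of these 279 genes 161 fell and 63 rose, with a median of −0.59. They were selected by their level in the feeders, one side of the contrast, so these values are a description only. The feeder-high genes, selected in control feeders with no library of this comparison, stayed near the shares of all genes. Of those 342 genes 168 rose and 94 fell, or 49.1% and 27.5%, beside 46.7% and 33% of all genes. Their median was 0.47, against 0.27 for all genes. The 12 largest falls of the comparison included Tenm4, described above, which ES cells also express. Pkhd1l1, another of them, a large fibrocystin-like membrane protein, was at 42.2, 37.6 and 57.4 CPM in the co-culture, against 731, 770 and 898 CPM in the feeders. Avil, advillin, an actin regulator, was at 2, 1.75 and 1.84 CPM in the co-culture and 65, 60.2 and 49.5 CPM in the feeders. Slc25a27, a mitochondrial carrier, was at 1.03, 1.43 and 2.14 CPM in the co-culture and 41.4, 39.4 and 48.7 CPM in the feeders. These 3 genes fell by more than 4 on the log2 scale, against the median of −0.59 of the 279 genes. Car6, a secreted carbonic anhydrase, Mfsd2a, a lysolipid transporter, and Ovgp1, an oviduct glycoprotein, changed by −4.60 ± 0.17, −4.57 ± 0.29 and −4.28 ± 0.20.

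Among secreted growth factors and their modulators 23 of 27 rose and 3 fell, at a median of 1.11. Igfbp2 was at 64.9, 83.1 and 70 CPM in the co-culture, against 0.0635, 0.231 and 0.49 CPM in the feeders, and it is also high in ES cells, with a mean of 268 CPM after feeder removal. Igfbp6, which prefers IGF2, was 5.21-fold higher and above both parts, at 306, 327 and 280 CPM in the co-culture and 50.5, 51.7 and 72.9 CPM in the feeders. Tgfbi, a TGF-β-induced matrix protein, was 8.30-fold higher. Of 19 WNT genes 13 rose and 2 fell. Sfrp1, a secreted WNT antagonist, was at 55.1, 68.3 and 63.1 CPM in the co-culture, against 5.01, 8.78 and 15.4 CPM in the feeders. Wnt7b and Wnt9a gained 2.32 ± 0.19 and 1.47 ± 0.14 on the log2 scale.

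LIF, BMP and FGF signal genes divided: 8 of 21 rose and 9 fell, beside 46.7% and 33% of all genes. Their median was −0.05, and above 0 in 3 of the 15 alternatives. Stat3, the transducer of LIF, rose to 221, 211 and 234 CPM in the co-culture, against 94.5, 101 and 117 CPM in the feeders. Id2, a BMP target, was 8.19-fold higher. Dusp6, a feedback inhibitor of ERK signalling, stood at 25.7, 28.5 and 26.5 CPM in the co-culture and 114, 109 and 86.4 CPM in the feeders, and Spry4, another, fell by 2.09 ± 0.18 on the log2 scale.

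Interferon-stimulated genes rose in 16 of 20 and fell in 2, at a median of 1.42, but from low levels. Usp18, which restrains the interferon receptor, was at 6.43, 7.92 and 6.12 CPM in the co-culture, against 0.19, 0.115 and 0.306 CPM in the feeders. Isg15, a ubiquitin-like modifier, was at 11.9, 15.2 and 12.1 CPM in the co-culture and 2.09, 2.6 and 2.33 CPM in the feeders. ES cells after feeder removal had means of 60.6 CPM of Usp18 and 63.5 CPM of Isg15, above both groups. None of the 20 genes was above both parts, beside 7.73% of all genes. Xaf1, an apoptosis factor of the interferon response, was 5.93-fold higher, at a level close to the mean of 38.4 CPM after feeder removal. Chemokine and cytokine genes rose in 12 of 20 and fell in 6, beside 46.7% and 33% of all genes. The chemokines Ccl7 and Cxcl5 were 4.67-fold and 16.2-fold higher, and Nfkbia, the NF-κB inhibitor, stood at 96.5, 107 and 82.9 CPM in the co-culture and 17.8, 20.4 and 24.8 CPM in the feeders. Of 14 macrophage markers 6 rose and 1, Cd74, fell. They summed to 45.3 to 48.8 CPM in the co-culture and 70.7 to 86.5 CPM in the feeders, and without Cd74 to 39.7 to 42.9 CPM in the co-culture and 11.1 to 15 CPM in the feeders. Cd74, the invariant chain, was at 5.88, 5.99 and 5.58 CPM in the co-culture and 65.5, 73.3 and 55.7 CPM in the feeders, and 7 of the 14 markers had no count in the feeders. The part of such cells in the chemokine and interferon counts was not tested.

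Most genes of the stress and amino acid response fell at the mRNA level, and ATF4 protein was not measured. Of 21 genes of the integrated stress response 16 fell and 1, Ddit4, rose, at a median of −0.94. Ddit4 was 0.46 higher on the log2 scale and 0.16 lower with length and GC offsets. Atf4, its central transcription factor, was at 235, 276 and 213 CPM in the co-culture, against 1019, 1066 and 800 CPM in the feeders. Trib3, a pseudokinase induced by ATF4, was at 87.2, 99.8 and 73.5 CPM in the co-culture and 390, 382 and 324 CPM in the feeders. Chac1, which degrades glutathione, was at 31, 36.4 and 23.9 CPM in the co-culture and 175, 175 and 151 CPM in the feeders. In each the groups lay well apart. Slc7a5, the leucine carrier, was 5.12-fold lower, Mthfd2, a mitochondrial folate enzyme, 2.87-fold. ES cells after feeder removal also held less than the feeders of Atf4, Trib3 and Chac1, with means of 251, 30.1 and 11.2 CPM. Of the 21 genes 1 was below both parts, beside 6.48% of all genes. In the list of 17 heat shock and chaperone genes 10 fell and 5 rose. Hspa5, the endoplasmic reticulum chaperone BiP, was at 889, 724 and 1010 CPM in the co-culture, against 2366, 2400 and 1788 CPM in the feeders, and Herpud1 and Dnajb9, also of that compartment, were 3.85-fold and 2.82-fold lower. The chaperones Hsp90b1 and Pdia4 of the same compartment had log2 fold changes of −0.43 ± 0.09 and −0.06 ± 0.09, and Pdia4 was not called. Hspb1, a small heat shock protein, was 5.81-fold higher.

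Promoters of Chac1 and Atf3 are printed as 2 of the 3 stress response genes of smallest p that hold the amino acid response letters TGATGNAA, which ATF4 is known to bind together with a C/EBP partner. Capitals mark the match, read here on the opposite strand. The letters occur in 8 of the 22 windows of list genes, or 36.4%, and in 3.97% of all windows. The windows are RefSeq's on GRCm38.p6, as above.
Chac1 (chr2:119350992-119351291, plus strand): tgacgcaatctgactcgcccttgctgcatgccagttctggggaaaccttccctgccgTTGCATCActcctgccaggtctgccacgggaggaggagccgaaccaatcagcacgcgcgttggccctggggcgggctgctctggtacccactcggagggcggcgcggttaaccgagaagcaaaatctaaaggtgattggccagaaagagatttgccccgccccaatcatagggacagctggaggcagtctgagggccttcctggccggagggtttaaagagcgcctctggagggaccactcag
Atf3 (chr1:191183284-191183583, minus strand): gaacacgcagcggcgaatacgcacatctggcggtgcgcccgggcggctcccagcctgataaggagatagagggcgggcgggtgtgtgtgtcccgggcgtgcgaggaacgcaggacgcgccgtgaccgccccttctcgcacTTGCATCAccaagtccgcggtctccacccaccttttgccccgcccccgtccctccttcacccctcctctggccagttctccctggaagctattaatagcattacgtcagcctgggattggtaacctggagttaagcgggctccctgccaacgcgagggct

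Immediate early genes, the first transcripts that growth signals raise, fell in 13 of 18 and rose in 3, and with length and GC offsets 16 fell and none rose. Atf3 was at 14.6, 15.2 and 12.8 CPM in the co-culture, against 202, 195 and 104 CPM in the feeders. Myc, the growth regulator, was at 100, 97.3 and 103 CPM in the co-culture and 338, 320 and 248 CPM in the feeders. Klf6 and Ier2 were 2.60-fold and 2.51-fold lower. Feeder replicate 3 was the lowest feeder for all 4 genes, and still above the co-culture. Ptgs2, the inducible cyclooxygenase, was at 55.4, 40.6 and 61.4 CPM in the co-culture and 409, 396 and 204 CPM in the feeders, and was picked after its values were seen.

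Mitotic genes fell. Of 24 G2/M genes 20 fell and 1, Plk1, rose (0.28, but −0.19 with length and GC offsets). The list median was −0.67, or −0.57 with length and GC offsets. Of these 24 genes 8 were below both parts, beside 6.48% of all genes. Mki67, which encodes the proliferation antigen Ki-67, was at 23.8, 25.1 and 35.6 CPM in the co-culture, against 175, 186 and 169 CPM in the feeders, with a mean of 163 CPM after feeder removal. Kif11, the spindle motor Eg5, was at 26.6, 27 and 24.4 CPM in the co-culture and 89, 86.6 and 78.1 CPM in the feeders. Tpx2, a spindle assembly factor, was 2.40-fold lower. The falls differed in size: Cenpf, with a transcript of 11130 bases, was 5.59-fold lower, while Ccnb2 fell by 0.33 on the log2 scale and was not called without co-culture replicate 3, at −0.18. Of 24 replication and G1/S genes 11 fell and 6 rose, with a median of −0.13 that was 0.03 when any of 3 single libraries was left out. Pole, the leading-strand polymerase, was 4.15-fold lower and Mcm10, a replication initiation factor, 2.79-fold, while Rrm1, of ribonucleotide reductase, was 2.1-fold higher.

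The p53 pathway went in both directions. Cdkn1a, which encodes p21, was at 828, 889 and 788 CPM in the co-culture, against 305, 290 and 186 CPM in the feeders, 1.68 ± 0.12 higher on the log2 scale. Mdm2 was at 83, 77 and 85.9 CPM in the co-culture, against 176, 165 and 150 CPM in the feeders, a log2 fold change of −1.0 ± 0.07. In neither gene did the groups overlap. ES cells after feeder removal had means of 562 CPM of Cdkn1a and 563 CPM of Mdm2, so that Mdm2 was lower in the co-culture than in either. Of 35 p53 targets 13 rose and 16 fell, beside 46.7% and 33% of all genes. Their median was −0.07, and above 0 in 3 of the 15 alternatives. Perp, a desmosome protein, and Sfn, or 14-3-3σ, both also epithelial genes, were 8.83-fold and 21.6-fold higher, and Phlda3, an AKT inhibitor, 3.12-fold. Eda2r, a death receptor, was at 43, 39.1 and 48.6 CPM in the co-culture, against 193, 192 and 135 CPM in the feeders. Trp53inp1, an autophagy and p53 cofactor gene, was 3.54-fold lower.

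In the list of 19 epithelial and mesenchymal genes 13 rose and 3 fell. Of those that rose Vim, Twist1, Twist2 and Snai1 are mesenchymal, as are all 3 that fell, Snai2, Zeb1 and Zeb2. With length and GC offsets Twist2 was −0.03, Zeb1 0.25 and Zeb2 0.52 on the log2 scale. Cdh1, E-cadherin, which ES cells use to adhere to each other, was at 24.8, 24.1 and 38 CPM in the co-culture and 1.78, 2.25 and 3.31 CPM in the feeders, far below the mean of 421 CPM after feeder removal. The simple-epithelium keratins Krt8 and Krt18 were above both parts. Krt8 was at 78.2, 78.4 and 81 CPM in the co-culture, against 0.317, 0.346 and 0.49 CPM in the feeders, and averaged 4.63 CPM after feeder removal and 15.5 CPM with ATN161. Krt18, its partner, was at 53.8, 56.8 and 53.8 CPM in the co-culture and 0.0635, 0.404 and 0.368 CPM in the feeders. Both keratins were tight among the co-culture libraries. Snai2, a mesenchymal transcription factor, fell to 14.9, 13.2 and 16.6 CPM in the co-culture, against 96.8, 89.1 and 65.9 CPM in the feeders. Of 15 early differentiation genes 5 rose and 2 fell: Hand1, a trophoblast and mesoderm factor, was at 1.88, 2.81 and 2.2 CPM in the co-culture and 0 in the feeders, Eomes gained 1.4 ± 0.21, and Gata6, a primitive endoderm factor also of mesothelium, lost 0.47 ± 0.09.

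Markers of other cell types were summed as well. Skeletal muscle markers, of which 5 of 8 rose and 1 fell, summed to 83.3 to 104 CPM in the co-culture and 10.7 to 11.7 CPM in the feeders. Des, given above, made up most of the co-culture sum. Endothelial markers summed to 29.2 to 34.3 CPM in the co-culture and 15.4 to 18.4 CPM in the feeders, with 6 of 8 higher and 1 lower. Neural markers summed to 114 to 118 CPM in the co-culture and 71 to 88.8 CPM in the feeders, with 5 of 9 higher and 2 lower. Their part in the results above was not tested.

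**Figure D5:**
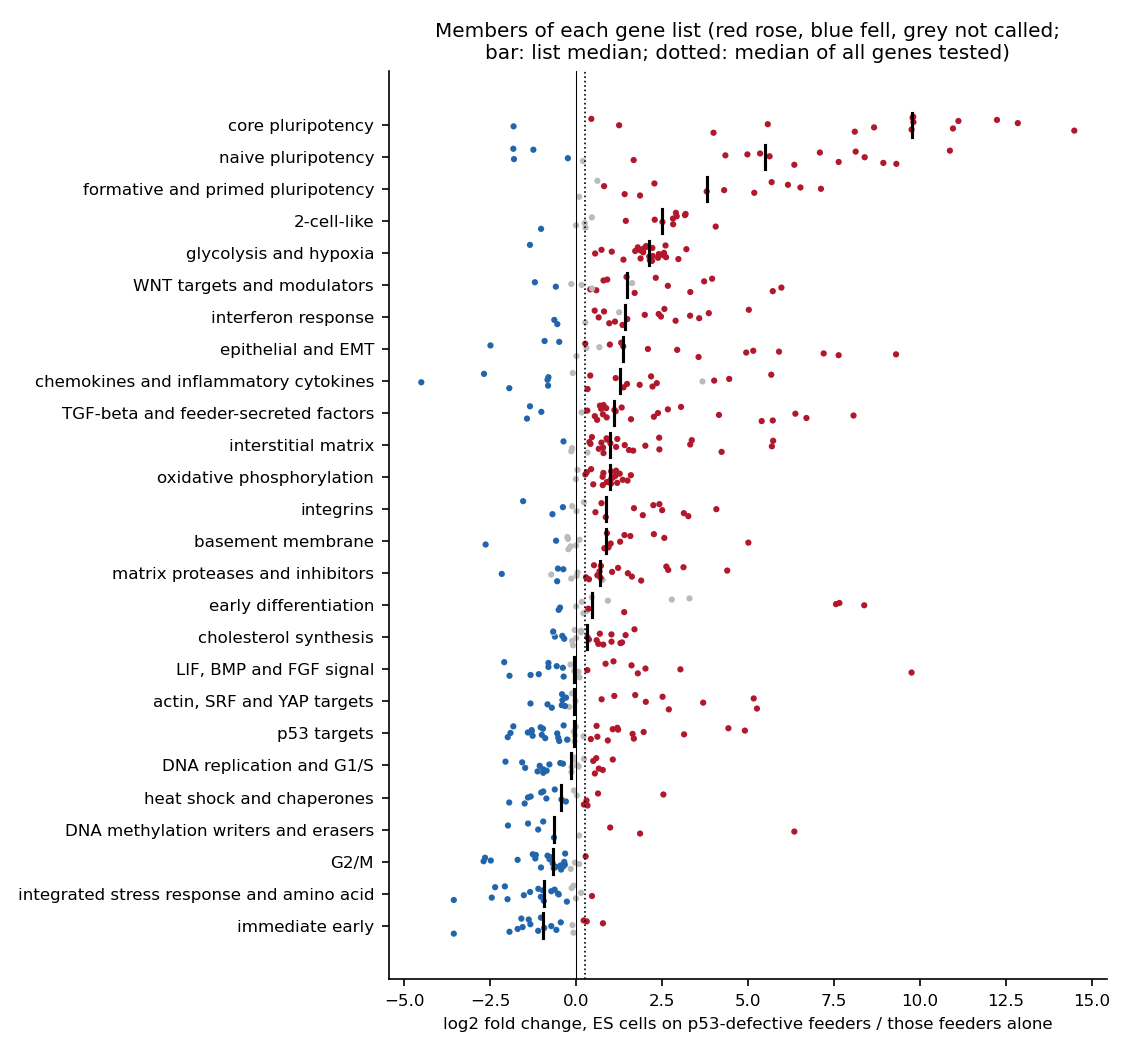
Log2 fold change (co-culture over feeders alone) of each tested member of 26 gene lists, red for higher, blue for lower and grey for not called, with a bar at the list median and a dotted line at the median of all genes, 0.27. Pluripotency lists lie furthest right, with glycolysis and hypoxia at 2.13, and immediate early genes furthest left at −0.97. The medians of the p53, actin, LIF and replication lists lie within 0.13 of 0 and change sign under some settings.

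The same contrast on control feeders shares no library with this one. There 44.3% of genes rose and 39.9% fell. Of the genes tested, 3817 rose on both kinds of feeder and 2651 fell on both, while 2299 rose on p53-defective and fell on control feeders and 1611 did the opposite. Across genes the 2 sets of log2 fold changes had a Spearman correlation of 0.31, with genes not independent of each other. The difference between the 2 effects, tested as an interaction, was positive in 38.8% of genes and negative in 34.8%. With scaling on feeder-high genes it was positive in 603 genes and negative in 12670.

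The matrix genes went opposite ways. Of 27 interstitial matrix genes 23 rose on p53-defective feeders, and all 27 fell on control feeders. Fn1 on control feeders averaged 2288 ± 80 CPM in co-culture and 12696 ± 1185 CPM in the feeders alone (SD, n = 3), and the effect on p53-defective feeders was 2.11 ± 0.20 higher on the log2 scale (adjusted p = 1.96e-09, edgeR quasi-likelihood test). Itgb1 and Itga5 differed by 1.77 ± 0.11 and 1.13 ± 0.12, in the same direction. The differences of single genes were not checked with scaling on feeder-high genes, under which most differences were negative. Beside these differences stands the median level of the ES-high genes, in percent of that after feeder removal. It was 11.3% here and 80.2% in the control co-culture, and its part in the differences was not tested. Of 24 G2/M genes 20 fell on p53-defective feeders, and all 24 rose on control feeders. Glycolysis and hypoxia genes rose on both, 22 of 27 on control feeders, at a median of 0.94. Igfbp3 was 17.8-fold higher here, while on control feeders it averaged 25.6 ± 1.2 CPM in co-culture and 617 ± 74 CPM in the feeders. Socs2 went the other way, with 40.6 ± 1.1 CPM in co-culture on control feeders and 9.01 ± 0.96 CPM in those feeders.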

How the data were processed

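Total RNA of the 18 mouse samples was isolated with Trizol and read as TruSeq mRNA libraries, per the labels. Per the submitters' processing notes, the tools were StringTie 1.3.3b, HISAT2 2.1.0, DESeq2 1.2.10 and SAMtools 1.4 (what each did is not said) and the build was GRCm38, also called mm10. Whether strand was kept is not given in the sources used here, so antisense overlaps cannot be told apart. The authors deposited expected counts, that is estimated read counts per RefSeq transcript (75416 transcripts), not normalised. Their FPKM, TPM and normalised columns were not used.

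Counts were summed per gene (19630 genes) and rounded, with 89.3% of sums whole within 0.05. Genes passing filterByExpr (15389, with 4241 removed) entered 1 fit of all 18 libraries with a coefficient for each group. Tests were edgeR's quasi-likelihood test (version 4.0.16, R 4.3.3), two-sided and robust with TMM scaling, and Benjamini-Hochberg adjustment at 0.05 over all genes. SE is the log2 fold change divided by the root of F. Where a group had no count, a fold was set against 3 counts over the group, or 0.0607 CPM in the feeders, which covers counting error only. p-values measure the spread between these libraries, which may be technical. Transcript length and GC content were those of the longest GENCODE transcript on GRCm38, for 14960 of the genes tested. The fit was also run on data simulated for the 6 libraries alone, with few genes changed. Most genes differed here and 18 libraries were fitted, so that run does not check the error rate of the calls.

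The gene lists, the members and the rule for naming genes were chosen with earlier results of these data known, so list counts are not independent support. By the rule were named 11 p53, fibronectin, integrin and pluripotency genes, the 12 largest rises and 12 largest falls with groups that did not overlap and at least 10 CPM, the 10 furthest above and below both parts, the 8 largest differences between the 2 kinds of feeder in each direction, and up to 5 members of each list with the smallest p. The text names some of these. Acta2, Col1a1, Msln, Wt1, Ccn1, Ccn2, Ccnb2, Tpm1, Klf4, Klf5, Tfcp2l1, Lin28b, Vegfa, Ddit4, Plk1, Tet1, Myh9, Itga3, Itga4, Itga8, Itgb8, Hsp90b1, Pdia4, Twist1, Twist2, Snai1, Zeb1 and Zeb2, beside those said to be so in the text, were chosen after their values were seen. Feeder-high genes were defined as the ES-high genes were, with the sides exchanged, and both needed 10 CPM or more on the high side. Alternatives were DESeq2 1.42.0 (Wald test, and its size factors alone), limma-voom (limma 3.58.1), a replicate block, scaling on feeder-high genes, the low-count filter dropped or set to 5 CPM in 3 libraries, the 6 libraries fitted alone or less each library in turn, class folds of 4 and 32, and, chosen after seeing the data, offsets for transcript length and GC content (splines with 4 df per library).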

Additional observations from a re-analysis of the deposited data

Results flagged for a closer look

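For 25 genes the effect of co-culture (co-culture over feeders alone, log2) differed between p53-defective and control feeders in the interaction test of edgeR at an adjusted p below 0.05. Values below are the effect on p53-defective feeders minus that on control feeders. Since 38.8% of all genes tested passed in the positive and 34.8% in the negative direction, passing sets none of them apart. With scaling on feeder-high genes 603 differences were positive and 12670 negative. The values and signs of the single genes below were not checked under that scaling. Groups of 3 libraries are too small for a test of single outlying samples.

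Among the genes of the p53 and fibronectin axis the difference was −2.25 for Trp53, −1.49 for Mdm2 and 1.19 for Cdkn1a. It was 2.11 for Fn1, 1.13 for Itga5, 1.77 for Itgb1, 0.83 for Itgav and 2.76 for Itgb3. Nanog differed by −5.07.

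The largest positive differences were 15.06 for Lgr5, a WNT co-receptor, 13.27 for Igfbp5, 12.14 for Aspn, 11.78 for Ctss, 11.69 for Eln, 11.53 for C1qtnf3, 11.38 for Cthrc1 and 11.26 for Slc6a17. They came with next to no counts in p53-defective feeders and high levels in control ones. Lgr5 averaged 0.426 ± 0.065 CPM in the co-culture on p53-defective feeders and 0 in those feeders, and 0.261 ± 0.23 CPM in the co-culture on control feeders and 144 ± 25 CPM in those feeders (SD, n = 3). Where a group had no count, as for Lgr5, Ctss, Cthrc1 and Slc6a17, the size of the fitted difference depends on the prior count.

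The largest negative differences were −12.56 for Sycp1, a meiotic chromosome protein, −12.53 for Rex2, −12.05 for Zfp978, −11.32 for Gm4737, −11.16 for Zfp600, −10.86 for Hmga1b, −10.60 for Dmrt1 and −10.19 for Zscan4f. These were present in p53-defective feeders and near or at 0 in control feeders. Sycp1 averaged 2.46 ± 0.31 CPM in the co-culture on p53-defective feeders and 5.89 ± 0.18 CPM in those feeders, and 17.4 ± 1.8 CPM in the co-culture on control feeders and 0 in those feeders (SD, n = 3). Gm4737 and Hmga1b are near-identical copies of other genes, and their reads cannot be assigned with certainty.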

How the results depend on the processing

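The counts of 7187 higher and 5079 lower genes stayed within 1.5 times their value under the 15 alternatives, and ranged over 6960 to 7616 and 4452 to 5093 when each library was left out in turn. At 2-fold or more, 4114 were higher, and 2735 in a fit of only the 6 libraries, and 2470 were lower, and 1634 with length and GC offsets. Leave-one-out counts were 3923 to 4621 and 2142 to 2537. Above both parts were 1190 genes (1122 to 1554 with a library left out, 155 with scaling on feeder-high genes). Below were 997 (752 to 1025, 2216 with that scaling, 590 with the offsets). Positive differences between the kinds of feeder numbered 5975 (603 with that scaling) and negative ones 5352 (12670). Of ES-high genes 18.8% fell, and 6.21% with a class fold of 32.

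List medians near 0 changed sign. The p53 target median, −0.07, was 0.05 with the offsets, 0.05 with no filter and −0.18 to 0.12 with a library left out. The actin list was 0.10 with the offsets, 0.06 with no filter and −0.06 to 0.06 with a library left out. The LIF list was 0.07 with no filter and −0.04 to 0.11 with a library left out, and DNA replication −0.24 to 0.03. With the offsets Itgav was 0.69, Itgb1 0.52, Sc5d 0.27, Cox4i1 −0.11, Plk1 −0.19, Ddit4 −0.16, Gm4737 −0.28, Twist2 −0.03, Zeb1 0.25, Zeb2 0.52 and Hsp90b1 0.05. Itgb1 was also 0.01 with no filter and −0.13 to 0.00 with a library left out. Hif1a, at 0.00, was 1.03 and called with the offsets, −0.11 with only the 6 libraries, −0.02 with either use of DESeq2 and −0.02 to 0.13 with a library left out. Pdia4, at −0.06, was 0.06 with no filter and −0.06 to 0.06 with a library left out. The causes were not tested. In 10 lists and 2 marker sets the smaller count, of 3 or fewer, moved by 1 to 3 genes with a library left out.

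Same-numbered libraries of the 2 groups showed no common deviation (r of −0.038 to 0.014, against −0.029 to 0.025 for unlike numbers). With 3 libraries per group this cannot exclude a pairing. With a replicate block 7180 genes were higher and 5064 lower. The co-culture on p53-defective feeders was set against ES cells that had not grown on such feeders, and the labels do not give cell numbers.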

Other observations

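Genes of the germline stood among the largest rises. Dazl, an RNA-binding protein of germ cells, was at 16.9, 15 and 16.2 CPM in the co-culture and had no count in the feeders, at least 264-fold higher. Stra8, which starts meiosis in response to retinoic acid, was at 9.22, 11.2 and 9.62 CPM in the co-culture and 0 in the feeders, at least 165-fold. Both are expressed by these ES cells without feeders, Dazl at a mean of 119 CPM and Stra8 at 20.9 CPM after feeder removal. Ezhip, an inhibitor of the Polycomb methylase, was at 13.7, 20.1 and 17.9 CPM in the co-culture, against 0, 0 and 0.0613 CPM in the feeders. In all, 952 genes tested had no count in any of the 3 feeder libraries, and 667 of them rose. A gene without a count there can hardly be called in the other direction, so this is a description only.

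Elf3 and Tfap2c, chosen here after their values were seen, were also present, and they stand for no set of trophoblast genes. Among the early differentiation genes Hand1 and Eomes rose, as given above. Gata3, also picked after its value was seen, fell by 0.51 on the log2 scale. Elf3, an epithelial ETS factor, was at 10.6, 13 and 12.4 CPM in the co-culture and 0, 0 and 0.0613 CPM in the feeders. Tfap2c, a trophoblast and germline factor, was at 9.46, 9.79 and 10.8 CPM in the co-culture and 0, 0 and 0.123 CPM in the feeders. Both were lower than in ES cells after feeder removal, at means of 31.8 and 84 CPM.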
